A study of Mus musculus with 32 samples.

Results

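Immediate early genes are switched on within minutes of a stimulus, without new protein synthesis, and are widely read as a record of recent neuronal activity. The group described here holds 38 such genes and their slower activity-regulated companions, chosen by symbol and looked up by Ensembl identifier among the 55401 identifiers of a hypothalamus expression table. All 38 members matched 1 identifier each, and all 38 passed the filter on low values, having at least 10 normalized counts in 31 or 32 libraries. They were divided into 9 AP-1 and Egr transcription factors (Fos, Fosb, Fosl2, Jun, Junb and Egr1 to Egr4), 17 other fast-response genes, 3 neuronal activity genes (Arc, Npas4 and Nr4a1) and 9 slower activity genes. These classes were assigned for this description, and neither the speed of response nor the cell type was measured.

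The 32 libraries were made from hypothalamic RNA of male mice of the C57BL/6NTac strain, in a study of how loss of Gpr101, an X-linked orphan receptor of hypothalamic neurons, and a high-fat diet bear on metabolism. Males hemizygous for the Gpr101 knockout formed 2 groups, 8 mice fed control diet (KO_CD) and 9 fed high-fat diet (KO_HFD). Their wild-type littermates formed the other 2, with 7 mice fed control diet (WT_CD) and 8 fed high-fat diet (WT_HFD). All mice ate chow until 7 weeks of age. The age label read 149 days for 5 KO_CD, 6 WT_CD, 1 KO_HFD and 1 WT_HFD mice, and 150 days for 3, 1, 8 and 7 mice, so that age largely followed diet. The labels name no cell type or promoter for the deletion, and the tissue is a whole region. A change in the number of active cells and a change in RNA per cell therefore cannot be told apart.

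Total reads on genes ranged from 25.33 to 34.19 M per library. Gpr101 had 0 reads in every KO_CD library and 1 read over the 9 KO_HFD libraries, and its normalized count was 2692 to 2998 in WT_CD and 2738 to 2988 in WT_HFD. All 13 hypothalamic marker genes were detected in every library. Among pituitary markers, Lhb was at 0 in all 32 libraries, Prl and Pou1f1 in 16 each, Gh in 7, Fshb in 6 and Cga in 1. Tshb and Tbx19 were detected in every library, at median normalized counts of 58.46 and 46.22. Gh and Prl were highest in WT_HFD replicate 8, at 302.6 and 90.46.

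In a neuron, calcium and cAMP signals activate kinases that phosphorylate CREB and the partners of serum response factor, which already sit on the promoters of the fast genes. CREB binds the cAMP response element, whose core half-site is TGACG, and serum response factor binds the CArG box. The proteins made first (Fos and Jun family members, which pair to form AP-1, and the Egr zinc fingers) then act on later genes, and several of the others (Zfp36, Btg2, Dusp1) bring the response to an end.

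The promoters of Fos and of 4 members called with it across mice are printed because they hold such an element close to the start. Egr4 and Atf3, called as well, also held one there and are not printed, while Jun, Fosl2, Btg2, Dusp1 and Tiparp, called as well, held none in these 120 bases. Each run is the 120 bases before a RefSeq transcript start on GRCm38.p6, written 5′ to 3′ along the gene, and capitals mark the TGACG half-site (CGTCA where it lies on the other strand) or, in Egr2, also the CArG box. The windows are chr12:85473770-85473889 (plus strand) for Fos, chr7:19310046-19310165 (minus) for Fosb, chr8:84978749-84978868 (minus) for Junb, chr10:67537749-67537868 (plus) for Egr2 and chr15:101266726-101266845 (plus) for Nr4a1. For Egr2, which has several listed starts, the window with both motifs was taken.
Fos: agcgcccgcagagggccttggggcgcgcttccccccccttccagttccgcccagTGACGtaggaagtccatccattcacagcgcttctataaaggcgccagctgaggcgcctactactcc
Fosb: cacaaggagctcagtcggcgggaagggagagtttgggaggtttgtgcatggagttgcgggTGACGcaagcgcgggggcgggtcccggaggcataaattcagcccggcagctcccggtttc
Junb: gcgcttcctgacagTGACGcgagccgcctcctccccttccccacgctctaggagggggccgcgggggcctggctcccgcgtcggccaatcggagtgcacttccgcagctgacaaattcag
Egr2: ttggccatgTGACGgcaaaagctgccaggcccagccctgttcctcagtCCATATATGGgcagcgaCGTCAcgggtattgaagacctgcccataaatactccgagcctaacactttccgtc
Nr4a1: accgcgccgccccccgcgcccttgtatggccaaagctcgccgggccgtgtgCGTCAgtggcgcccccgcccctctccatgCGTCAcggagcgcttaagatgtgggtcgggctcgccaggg

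RefSeq windows were found for 31 members, 48 windows in all because some genes have several starts. No window was found for Egr1, Egr3, Ier2, Trib1, Sik1, Arc and Klf10. Over the 250 bases before the start and on both strands, TGACG was present in 29 of the 48 windows (60.4%), against 17.8% of all 32851 promoter windows. The full palindrome TGACGTCA, which contains that half-site, was present in 4 windows (8.33%, against 1.55% of all). The CArG box was present in 6 windows (12.5%, against 1.47%), which belonged to Egr2, Zfp36 and Dusp5, and 4 of the 6 were windows of Egr2, 3 of them overlapping each other and 1 separate. The Egr motif GCGNGGGCG was present in 11 windows (22.9%, against 4.7%), and the AP-1 motif TGANTCA in 2 (4.17%, against 6.75%). These are matches of letters in windows that partly overlap, and no binding was measured.

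The members differed widely in abundance. Scaled by exon length, the most abundant in wild-type mice on control diet was Egr1, at 23.5 ± 8.41 RPKM (reads per kilobase of exon and per M reads; SD, n = 7), followed by Fos at 22.1 ± 7.55 and Jun at 19.9 ± 3.12. These 3 overlapped within their SDs. The least abundant were Egr2 at 0.521 ± 0.216 and Dusp5 at 0.665 ± 0.260. Per1, a clock gene that also responds to light and cAMP, reached 12.9 ± 1.46, and Gadd45g, a growth-arrest gene, 12.4 ± 0.925. The neuronal gene Arc, whose RNA is carried to dendrites, stood at 7.658 ± 1.275, and Npas4, the calcium-dependent factor of active neurons, at 4.57 ± 0.904.

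The members also differed in how far they varied between mice. Across the 32 libraries the highest normalized count exceeded the lowest by 14.4-fold for Egr2, 8.85-fold for Atf3, 7.21-fold for Fosb, 6.96-fold for Fos, 6.45-fold for Egr1 and 6.48-fold for Btg2. Among slower genes that ratio was 1.33 for Homer1, a postsynaptic scaffold, 1.49 for Per1 and 1.54 for Gadd45g. The spread was not uniform within either class. Klf6 and Ier5, counted among the fast genes, varied by 1.24-fold and 1.33-fold, and Dusp5 among the slower ones by 6.13-fold at 17 to 104 reads per library.

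**Figure D1:**
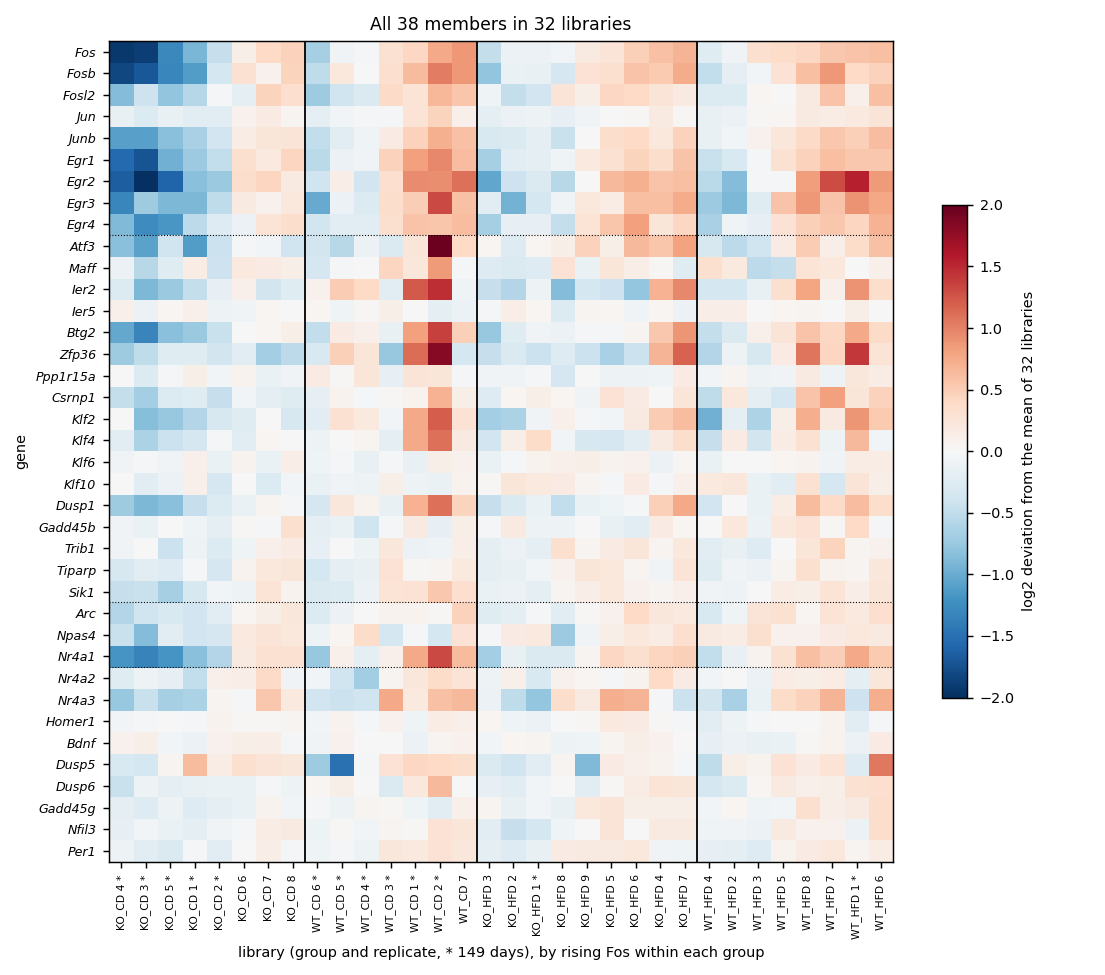
Heat map of all 38 members (rows, by class) in 32 libraries (columns, ordered by rising Fos within each group), coloured by log2 deviation from the mean of the 32 libraries, with the end colours covering anything beyond the scale; an asterisk marks mice of 149 days. The AP-1 and Egr genes, Btg2, Dusp1 and Nr4a1 are low in the KO_CD mice of 149 days (Fos 310 to 861 counts). Zfp36, Ier2, Klf2 and Klf4 are high in WT_CD replicates 1 and 2, as are Egr1, Btg2, Dusp1 and Nr4a1.

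Fos, which encodes the founding AP-1 subunit, is described first by group and age. Its normalized counts in the 5 KO_CD mice of 149 days were 624, 861, 320, 310 and 482, and in the 3 KO_CD mice of 150 days 1278, 1561 and 1625. In WT_CD they ran from 746 through a median of 1461 to 2159, in KO_HFD from 849 through 1335 to 1892, and in WT_HFD from 998 through 1547 to 1799. Within KO_CD the ages did not overlap. The KO_CD mice of 150 days lay inside the range of each of the other groups, while 4 of the 5 KO_CD mice of 149 days lay below every other mouse in the series.

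On control diet the question was whether members differed between knockout and wild type, and no member passed the test after adjustment over 19928 genes (limma, smallest adjusted p = 0.9999), where 0.00502% of all genes, Gpr101 alone, were called lower. In log2 units, 33 of 38 members were below 0, with a median difference of -0.29 against -3e-04 for all genes tested. At an unadjusted p under 0.05, 19 members were lower and 0 higher, where 2.14% of all genes were lower and 1.98% higher. By class the 19 were 6 of 9 AP-1 and Egr genes, 10 of 17 other fast genes, 1 of 3 neuronal genes (Nr4a1) and 2 of 9 slower genes (Dusp6 and Per1). Limma-voom on whole reads recovered from the deposited values gave the same count of 19. With age as a covariate 25 members were lower and 0 higher at that threshold, and none was called (limma, smallest adjusted p = 0.9625). Many members rise and fall together from mouse to mouse, so such counts are not counts of independent genes.

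Fos was lower by 0.91 on the log2 scale (-0.91, SE 0.31, 1.89-fold, unadjusted p = 0.00629 and adjusted p = 0.9999 by limma). An exact permutation test of Fos alone gave a two-sided p = 0.046 for means of 9.52 and 10.435. Egr1, the zinc finger most often used as an activity marker, ran from 679 through a median of 1480 to 3031 in KO_CD and from 1540 through 3104 to 4384 in WT_CD. Its difference was -0.87 (SE 0.30). Egr2 counts ran from 7.29 through 19.9 to 47.6 in KO_CD and from 26.4 through 44.4 to 76.1 in WT_CD, a difference of -1.13 (SE 0.41). All 3 genes overlapped between the genotypes, and no member separated the 8 knockouts from the 7 wild types, where 0.0151% of all genes were lower without overlap.

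Among the other AP-1 genes the difference was -1.05 (SE 0.32) for Fosb, which gives rise to a long-lived variant, and -0.58 (SE 0.22) for Junb. It was -0.16 (SE 0.08) for Jun and -0.32 (SE 0.22) for Fosl2, with unadjusted p = 0.0671 and 0.147. Egr4 differed by -0.63 (SE 0.26) and Egr3 by -0.67 (SE 0.33).

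Of the fast genes that limit the response, the antiproliferative gene Btg2 differed by -0.85 (SE 0.26) and the phosphatase gene Dusp1, whose product inactivates MAP kinases, by -0.70 (SE 0.21). Ier2 differed by -0.87 (SE 0.28). Zfp36, which encodes the mRNA-destabilising protein tristetraprolin, ran from 100.3 through 121.5 to 141.7 in KO_CD and from 97.2 through 194 to 583 in WT_CD, a difference of -0.76 (SE 0.33). The knockout values were tightly bunched, and the wild-type spread came mainly from WT_CD replicates 1 and 2 (359 and 583). Klf2, a zinc-finger factor known in endothelium, ran from 199 through 287 to 359.7 in KO_CD and from 308 through 438 to 830.0 in WT_CD (-0.74, SE 0.25), with its highest WT_CD values in the same 2 mice.

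Nr4a1, an orphan nuclear receptor induced within minutes, differed by -0.83 (SE 0.29), Arc by -0.22 (SE 0.12) and Npas4 by -0.18 (SE 0.15). Some slower genes lay nearer to 0, with -0.02 (SE 0.04) for Homer1 and 0.04 (SE 0.05) for Bdnf, a neurotrophin. Nr4a2 differed by -0.02 (SE 0.13) and Nfil3, a repressor that tracks the clock, by -0.11 (SE 0.09). Others lay farther from 0: by limma-voom Nr4a3 differed by -0.33 (SE 0.27) and Dusp5 by 0.27 (SE 0.23). The 95% intervals were -0.11 to 0.07 for Homer1 and -0.06 to 0.14 for Bdnf. Dusp6, which inactivates ERK, differed by -0.27 (SE 0.11) and Per1 by -0.20 (SE 0.09).

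**Figure D2:**
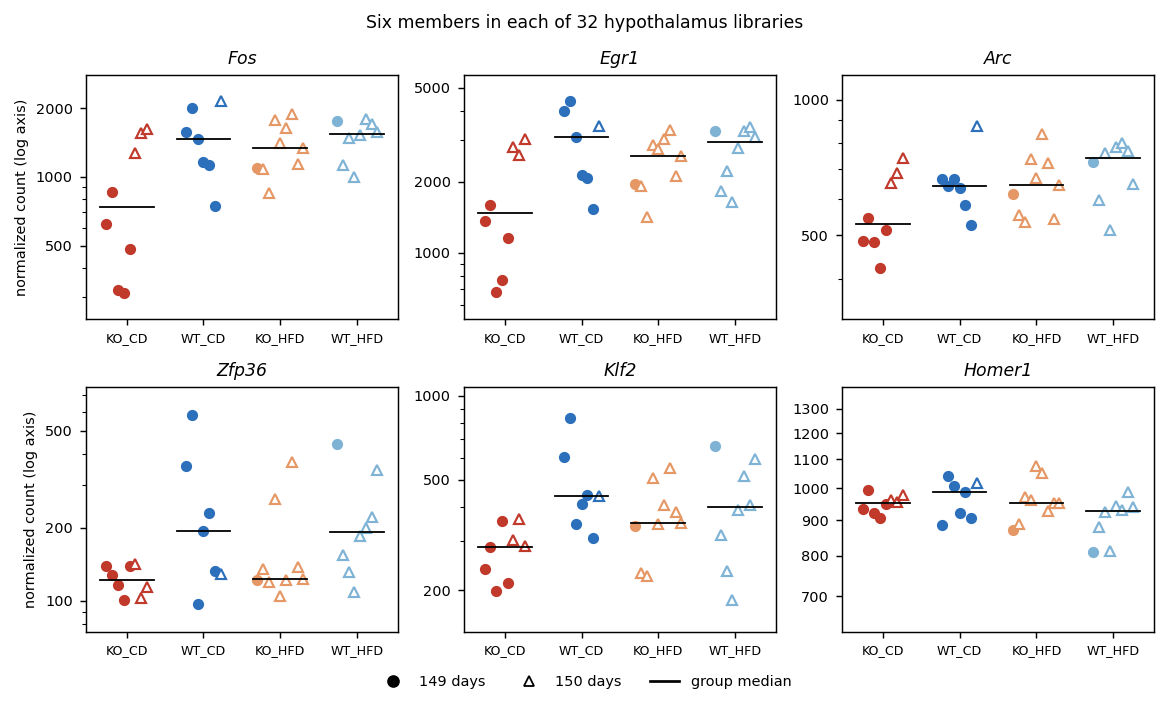
Normalized counts (log axis) of Fos, Egr1, Arc, Zfp36, Klf2 and Homer1 in each of the 32 mice by group; filled circles are mice of 149 days, open triangles mice of 150 days, and lines are group medians. Fos in the 5 KO_CD mice of 149 days sits between 310 and 861 and in the 3 of 150 days between 1278 and 1625, whereas Homer1 spans 810 to 1076 over all groups.

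The count depended on a few mice on either side. Without KO_CD replicates 3 and 4, the mice with the least Fos (320 and 310), 7 members were lower at an unadjusted p under 0.05, against 2.38% of all genes, and Fos differed by -0.51 (SE 0.27). Without WT_CD replicates 1 and 2, which held the most Zfp36, Ier2 and Klf2 of their group, 6 were lower, against 2.56% of all genes, and Zfp36 differed by -0.30 (SE 0.31). The same mice also held the most Egr1, Btg2, Dusp1, Nr4a1 and Jun of WT_CD. Without them Egr1 differed by -0.63 (SE 0.32) and Nr4a1 by -0.52 (SE 0.30). Both alternatives were chosen after seeing the data. Fosb, Btg2, Dusp1 and Csrnp1 were lower at that threshold in both.

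Restricting the comparison to mice of 149 days (5 KO_CD against 6 WT_CD) gave larger differences. There 24 members were lower at an unadjusted p under 0.05 and 0 higher, against 2.14% and 1.88% of all genes. Their median was -0.44, and none was called (0.00502% of all genes were), the smallest adjusted p being 0.118 for Egr2 (limma). Fos differed by -1.42 (SE 0.33; exact permutation p = 0.00866, two-sided), Egr1 by -1.34 (SE 0.34), Egr2 by -1.65 (SE 0.29) and Arc by -0.34 (SE 0.07, adjusted p = 0.199). Egr2 and Csrnp1 did not overlap between the genotypes at that age, where 0.206% of all genes were lower without overlap. Csrnp1 lies within the annotated span of Cx3cr1 on the same strand, so its reads may be shared with that microglial gene. At 150 days the only WT_CD mouse had 2159 Fos counts, above the 1278 to 1625 of the 3 KO_CD mice.

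In the comparison of all control-diet mice, both ages together, none of the 12 meningeal markers, 10 microglial, 10 endothelial or 5 blood markers tested reached an unadjusted p under 0.05, although all 12 meningeal ones were above 0 (median 0.19). Of 8 oligodendrocyte markers 2 were higher at that threshold, and of 8 astrocyte markers 1 was lower. The feeding peptide gene Npy was lower (-0.38, SE 0.14, unadjusted p = 0.0123). Their part in the members' differences was not tested.

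On high-fat diet the genotype difference was small. The median over members was -0.10 against -0.0021 for all genes, 31 of 38 lay below 0, and none passed the test (limma, smallest adjusted p = 0.948), which called 0.00502% of all genes lower. At an unadjusted p under 0.05, 0 members were lower and 1 was higher, Homer1 (0.09, SE 0.04), where 2.67% and 2.47% of all genes were lower and higher. Fos differed by -0.16 (95% interval -0.75 to 0.44), Egr1 by -0.14 (SE 0.28), Arc by -0.11 (SE 0.12) and Nr4a1 by -0.23 (SE 0.27). An exact permutation test of Fos gave a two-sided p = 0.367. Limma-voom also gave 0 lower and 1 higher. Averaged over diets, 17 members were lower at an unadjusted p under 0.05 and 0 higher (3.1% and 2.62% of all genes) and none was called (0.00502% of all genes, lower), with Ier2 at -0.64 (SE 0.19) and Dusp1 at -0.47 (SE 0.15) having the smallest p.

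Whether the genotype difference itself depended on diet was tested by the interaction. No member passed (limma, smallest adjusted p = 0.9988), and 2 members, Atf3 (0.94, SE 0.37) and Fosb (0.93, SE 0.44), had an unadjusted p under 0.05 and were higher, against 1.54% of all genes, with 0 lower against 1.86%. With age as a covariate 5 members were higher and 0 lower at that threshold, and none was called (limma, smallest adjusted p = 0.9979). In WT_CD 1 mouse, replicate 2, had 187.6 counts of Atf3, which encodes a stress-induced bZIP factor, where the others had 31.98 to 62.6. Without that mouse the interaction for Atf3 was 0.64 (SE 0.26, unadjusted p = 0.0184, adjusted p = 0.9994 by limma). The interaction for Fos was 0.76 (95% interval -0.11 to 1.63). The genotype difference was thus not shown to differ between the diets for any member.

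**Figure D3:**
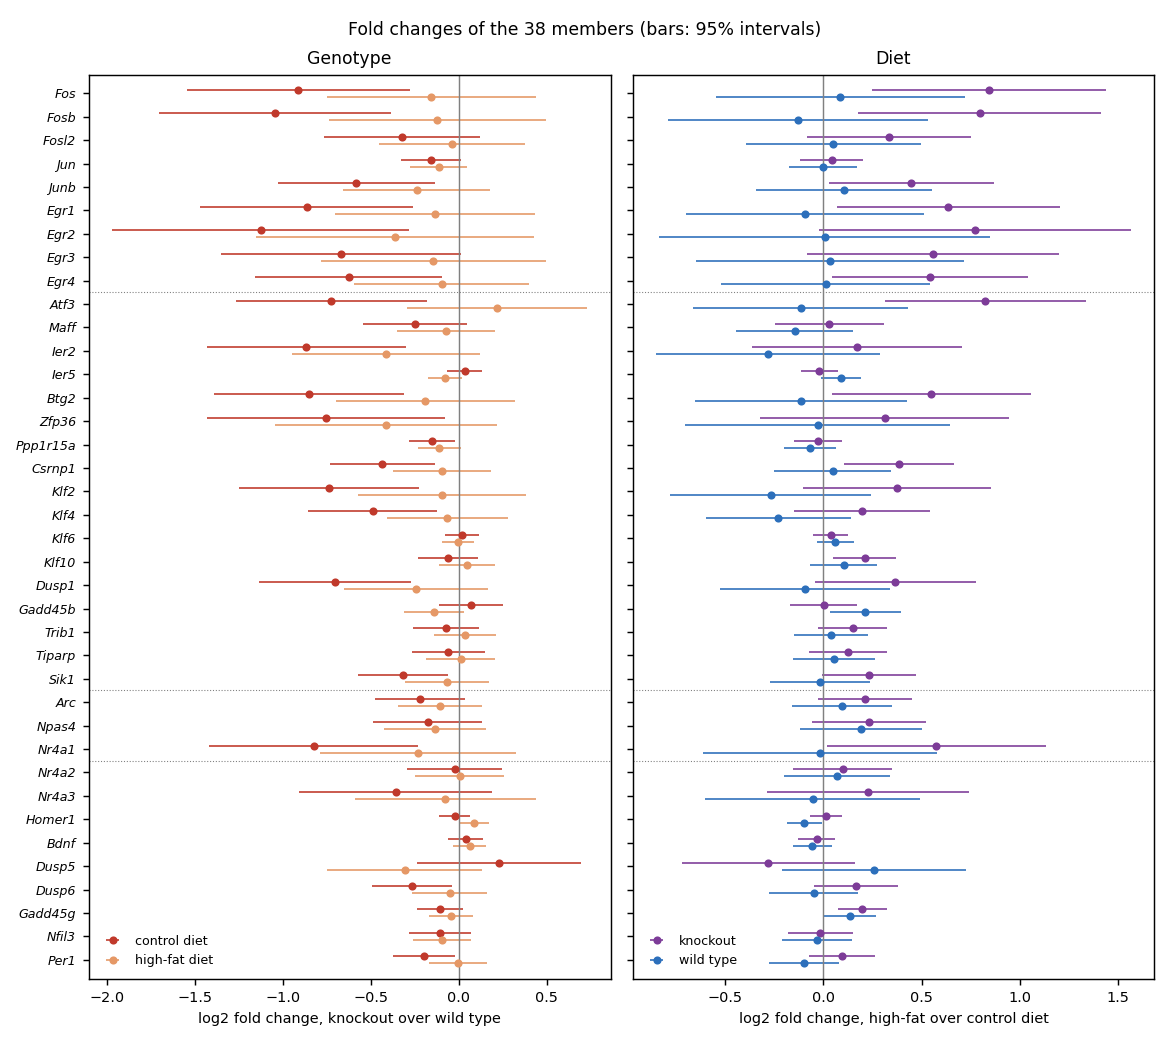
Log2 fold changes of the 38 members with 95% intervals, knockout over wild type on each diet (left) and high-fat over control diet in each genotype (right). On control diet 33 members lie below 0 for genotype, and in knockouts 33 lie above 0 for diet, while in wild type 18 lie above and 20 below 0 for diet. These fits hold no age covariate. With an age term common to all groups, 31 members lay below 0 for diet in wild type.

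The diet comparisons share their control-diet mice with the genotype comparison. In wild type the members' median was -0.0093, 18 lay above 0 and 20 below, and Fos differed by 0.09 (exact permutation p = 0.706, two-sided). None was called (limma, smallest adjusted p = 0.629), where 0.0251% of all genes were called higher. At an unadjusted p under 0.05, Gadd45b (0.21, SE 0.09) and Gadd45g (0.14, SE 0.07) were higher and Homer1 lower (-0.10, SE 0.04), where 3.85% of all genes were higher and 3.54% lower. With age as a covariate the wild-type differences were mostly negative: 31 of 38 members lay below 0, the median was -0.17, and Fos differed by -0.52 (SE 0.32), Egr1 by -0.56 (SE 0.32) and Fosb by -0.70 (SE 0.34). The age term was common to all groups. Wild type held only 1 WT_CD mouse of 150 days and 1 WT_HFD mouse of 149 days, so these values rest in part on the knockout mice. In that fit none was called (limma, smallest adjusted p = 0.428), 1 member was higher at an unadjusted p under 0.05 (Ier5), against 4.6% of all genes, and 2 were lower (Homer1 and Nfil3), against 3.64%.

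In knockouts the median was 0.21, 33 members lay above 0, and 11 were higher at an unadjusted p under 0.05, where 3.56% of all genes were, with 0 lower against 3.47%. None was called (limma, smallest adjusted p = 0.418), where 0.0151% of all genes were called higher and 0.0201% lower, and limma-voom gave 8. The 11 were Fos (0.84, SE 0.29), Fosb, Junb, Egr1 (0.64, SE 0.28), Egr4, Atf3 (0.83, SE 0.25), Btg2, Csrnp1, Klf10, Nr4a1 (0.57, SE 0.27) and Gadd45g (0.20, SE 0.06). For Fos alone an exact permutation test gave a two-sided p = 0.032. With age as a covariate 4 members were higher at an unadjusted p under 0.05, against 2.94% of all genes, and the median was 0.12. Of these mice 8 of 9 KO_HFD and 3 of 8 KO_CD were 150 days old. Of the 5 blood markers tested, 4 globin genes were higher at an unadjusted p under 0.05 in knockouts (Hbb-bs 0.57, SE 0.19) and in wild type (Hbb-bs 0.67, SE 0.20). The summed blood markers ran from 9041 to 20290 in KO_CD and from 14640 to 35460 in KO_HFD, and their part in the members' differences was not tested. Among clock genes outside the members, Npas2 was called lower in knockouts on high-fat diet (-0.30, SE 0.06, adjusted p = 0.0347 by limma). At an unadjusted p under 0.05 Arntl (-0.13, SE 0.04) was lower, and Bhlhe41 (0.11, SE 0.03) and Nr1d2 (0.10, SE 0.03) were higher. The other clock genes listed did not reach that threshold, and the part of the clock genes was not tested.

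KO_CD was the only group with at least 2 mice of each age, and its 3 mice of 150 days were set against its 5 of 149 days. At 150 days 36 of 38 members were above 0, with a median of 0.34 against -5e-04 for all genes. No member was called (limma, smallest adjusted p = 0.296, for Fos), and 17 were higher at an unadjusted p under 0.05, where 2.83% of all genes were, with 0 lower against 2.36%. Limma-voom gave 16. The 17 held all 9 AP-1 and Egr genes, all 3 neuronal genes, 4 of 17 other fast genes (Btg2, Dusp1, Tiparp and Sik1) and 1 of 9 slower genes (Nr4a3).

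Fos was higher by 1.62 (SE 0.32, 3.07-fold), with an exact two-sided permutation p = 0.0357, the smallest that 5 against 3 mice can give. Egr2 was higher by 1.71 (SE 0.46), Fosb by 1.53 (SE 0.37), Egr1 by 1.41 (SE 0.34), Nr4a1 by 1.29 (SE 0.34) and Junb by 1.02 (SE 0.25). Npas4 was higher by 0.68 (SE 0.18), its counts running from 288.5 to 453.7 at 149 days and from 607 to 632 at 150 days. Arc was higher by 0.51 (SE 0.14), with 422 to 546 counts at 149 days and 654 to 743 at 150 days. Neither gene overlapped between the ages.

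In 17 members the 2 ages did not overlap and the mice of 150 days were higher, against 2.14% of all genes, and in 0 they were lower, against 1.84%. They were 8 of the 9 AP-1 and Egr genes (without Fosl2), Atf3, Btg2, Csrnp1, Dusp1, Tiparp, Arc, Npas4, Nr4a1 and Nfil3. Many members rise and fall together from mouse to mouse, so these 17 are not independent observations. Zfp36 (-0.06, SE 0.45), Homer1 (0.04, SE 0.06), Bdnf (0.05, SE 0.07) and Klf10 (0.0026, SE 0.12) lay near 0.

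The same globin genes were higher at 150 days in KO_CD (4 of 5 blood markers at an unadjusted p under 0.05, Hbb-bs 0.62, SE 0.26), and the summed blood markers ran from 9041 to 13260 at 149 days and from 16310 to 20290 at 150 days. Of 9 heat-shock genes 8 were above 0 (median 0.07) and 2 were higher at that threshold, the chaperone genes Dnajb1 (0.32, SE 0.11, unadjusted p = 0.00954) and Hsph1 (0.15, SE 0.07, unadjusted p = 0.0361). The part of the blood and heat-shock genes in the age difference was not tested. The treatment protocol gives a single age of 150 days. Within KO_CD, replicates 1 to 5 (label numbers 1 to 17) were labelled 149 days. Replicates 6 to 8 (label numbers 18 to 26) were labelled 150 days. Age and label order therefore cannot be told apart in KO_CD. What the label numbers stand for, and what else differed between mice of the 2 ages, is not given in the sources used here. In the other groups 1 mouse carried the rarer age. The WT_CD mouse of 150 days had the highest Fos of its group (2159), the KO_HFD mouse of 149 days had 1089, and the WT_HFD mouse of 149 days had 1760, so that the single mice did not all lie in the direction seen in KO_CD.

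**Figure D4:**
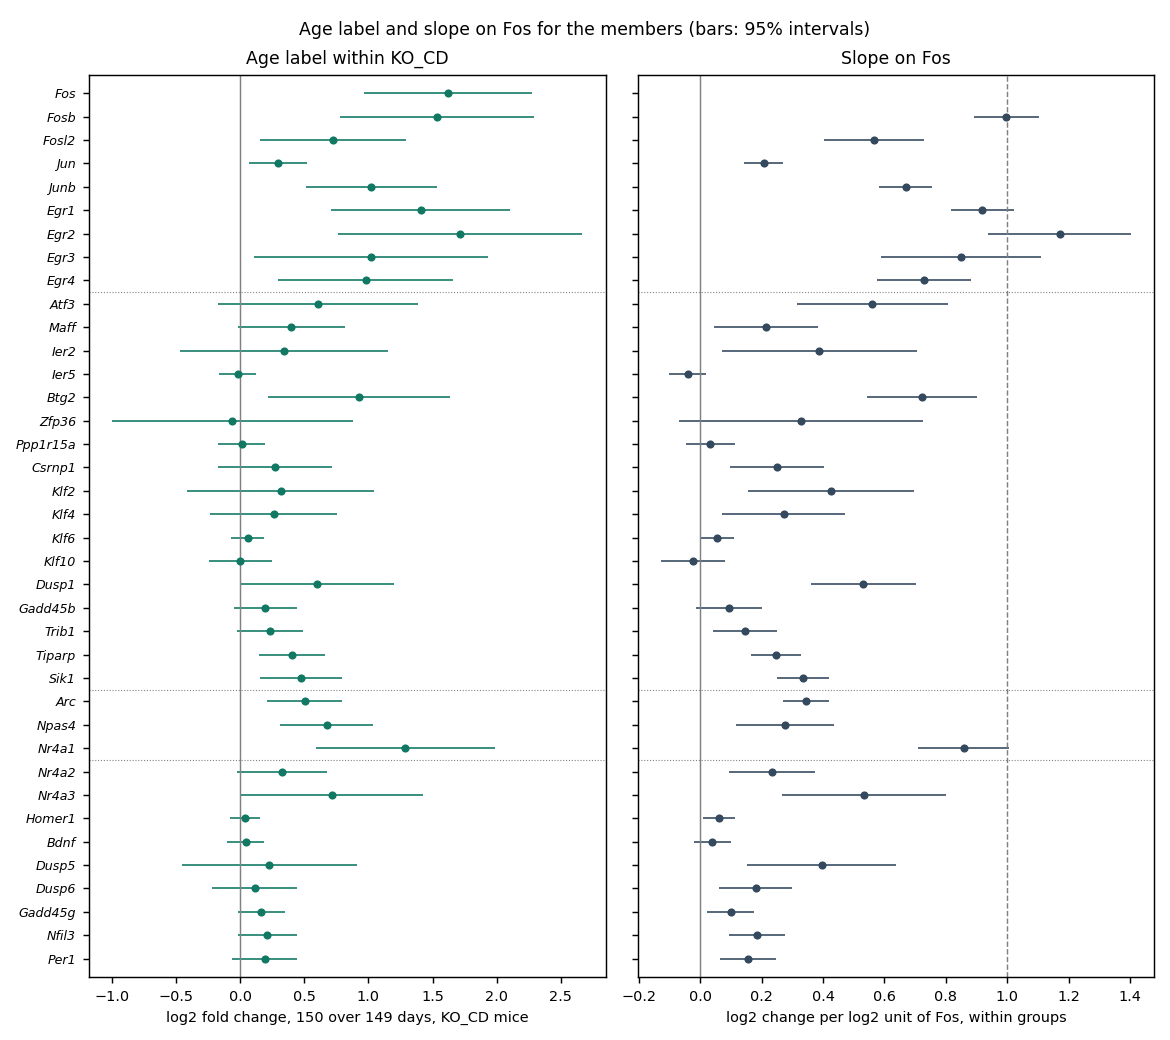
Log2 fold change of each member at 150 over 149 days in KO_CD mice (left, 3 against 5 mice) and slope on Fos within groups over 32 mice (right), each with its 95% interval; the dashed line marks a slope of 1. The AP-1 and Egr genes run from 0.30 (Jun) to 1.71 (Egr2) on the left and from 0.21 (Jun) to 1.17 (Egr2) on the right, and Homer1 and Bdnf lie near 0 in both.

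Variation from mouse to mouse within the groups gave the only calls for members. Each gene's log2 value was regressed on that of Fos with group as a covariate, so that differences between groups did not enter. Of 19927 other genes 47 were called, 43 rising with Fos (0.216% of all) and 4 falling (0.0201%), by limma. Of the 37 members other than Fos, 15 rose with it and 0 fell. At an unadjusted p under 0.05, 30 of 37 had slopes above 0, against 4.52% of all genes, and 0 below, against 3.55%. The members' median slope was 0.28 log2 units per log2 unit of Fos, against -7e-04 for all genes.

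All 8 other AP-1 and Egr genes rose with Fos. Egr2 had a slope of 1.17 (SE 0.12), Fosb 1.00 (SE 0.05, adjusted p = 8.06e-17), Egr1 0.92 (SE 0.05, adjusted p = 7.32e-13), Egr3 0.85 (SE 0.13), Egr4 0.73 (SE 0.08), Junb 0.67 (SE 0.04, adjusted p = 6.61e-12), Fosl2 0.57 (SE 0.08) and Jun 0.21 (SE 0.03). Fosb and Egr1 thus followed Fos nearly 1 for 1 on the log scale. The interval for Jun (0.14 to 0.27) lay far below those of Junb (0.58 to 0.76) and Fosb (0.89 to 1.10). With replicate number as a block, Egr3 and Jun were not called (adjusted p = 0.0623 and 0.0775 by limma).

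Among the neuronal genes Nr4a1 rose with a slope of 0.86 (SE 0.07) and Arc with a shallower one of 0.34 (SE 0.04, adjusted p = 3.96e-08), while Npas4 had 0.28 (SE 0.08, adjusted p = 0.233) and was not called. Of the 17 other fast genes 5 rose, namely Btg2 (0.72, SE 0.09), Atf3 (0.56, SE 0.12), Dusp1 (0.53, SE 0.08), Sik1 (0.33, SE 0.04), a kinase that restrains CREB coactivators, and Tiparp (0.25, SE 0.04). Atf3 was called narrowly, at adjusted p = 0.0248. It lost the call without any of KO_CD replicate 6, KO_CD replicate 7 or WT_CD replicate 6 (0.0591 to 0.0759), or with age as a covariate (0.0551). A block of label numbers (0.243) or of replicate numbers (0.376) ended the call as well. Tiparp lost its call with the block of label numbers (adjusted p = 0.0671 by limma). Dusp1 lost its call with the block of replicate numbers (adjusted p = 0.118 by limma). Dusp1 overlaps Ergic1 and Junb overlaps Prdx2 on the opposite strand, and the strand setting of the counting is not given in the sources used here.

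No slower gene was called, though all 9 slopes were above 0 and 8 had an unadjusted p under 0.05. Nfil3 (0.19, SE 0.05, adjusted p = 0.0757) and Nr4a3 (0.53, SE 0.13, adjusted p = 0.103) came nearest. Nfil3 was called without KO_CD replicate 3 (adjusted p = 0.0254) or WT_HFD replicate 1 (adjusted p = 0.0447), and Nr4a3 without KO_HFD replicate 7 (adjusted p = 0.0405), by limma. Homer1 had a slope of 0.06 (95% interval 0.01 to 0.11) and Bdnf of 0.04 (-0.02 to 0.10), both far below the interval of Egr1 (0.82 to 1.02). The annotated Homer1 gene holds both its short activity-induced form and its constitutive long forms, and the gene-level value does not separate them. No class was tested against another.

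Members were also called without the KO_CD group. With its 8 libraries left out, an alternative chosen after seeing the data, 15 members were called among 20 genes. The slopes were then 1.05 (SE 0.08) for Egr1, 1.502 (SE 0.19) for Egr2 and 0.47 (SE 0.06) for Arc. Npas4 had a lower slope there than over all mice, at 0.10 (SE 0.13). With age as a covariate 14 members were called among 23 genes. Without the 2 mice farthest from the median Fos (KO_CD replicates 3 and 4), Klf2 (0.68), Trib1 (0.26) and Nfil3 (0.27) were called as well. No gene of the cell type and region marker lists was called with Fos. The 5 blood markers had slopes of 0.05 to 0.20 and all 12 meningeal markers had slopes below 0 (median -0.22), none of either with an unadjusted p under 0.05.

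Several other marker lists held slopes below 0 at that threshold, where 3.55% of all genes had them. They were 2 of 10 microglial markers (Siglech and C1qa), 2 of 8 astrocyte markers (Ntsr2 and Aldh1l1), 2 of 13 hypothalamic markers (the feeding peptide genes Npy, -0.21, SE 0.08, and Agrp, -0.18, SE 0.09), and 1 each of 10 endothelial (Cldn5), 8 oligodendrocyte (Hapln2), 8 striatal (Adora2a) and 8 cortical and hippocampal markers (Wipf3). Of 9 heat-shock genes 2 had slopes above 0 at that threshold, Dnajb1 (0.19, SE 0.05, adjusted p = 0.108 by limma) and Hsph1 (0.06, SE 0.03). The part of all these in the members' slopes was not tested.

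**Figure D5:**
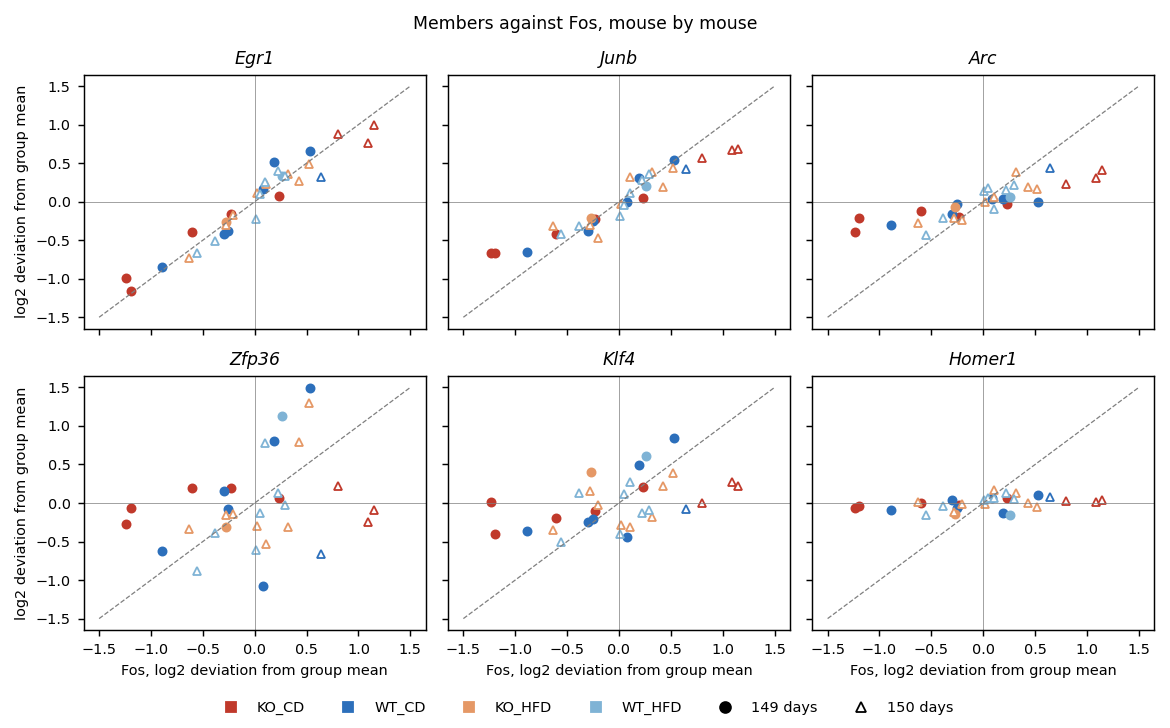
Log2 deviation from the group mean of Egr1, Junb, Arc, Zfp36, Klf4 and Homer1 (vertical) against that of Fos (horizontal) in the 32 mice; colour marks the group, filled circles 149 and open triangles 150 days, and the dashed line equal change. Egr1 lies close to the line (slope 0.92), Junb and Arc are shallower (0.67 and 0.34), Zfp36 scatters (0.33, SE 0.19) and Homer1 is flat (0.06).

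Not all fast genes were called with Fos. Zfp36 had a slope of 0.33 (SE 0.19), Ier2 0.39 (SE 0.15), Klf2 0.43 (SE 0.13) and Klf4 0.27 (SE 0.10), none of them called. With the KO_CD libraries left out, these slopes were 0.92, 0.73, 0.94 and 0.44 (SE 0.34, 0.28, 0.20 and 0.18). With age as a covariate they were 0.65, 0.64, 0.63 and 0.46 (SE 0.21, 0.17, 0.14 and 0.10). None of them was called in either fit. Klf10 (-0.02, SE 0.05), Ppp1r15a (0.03, SE 0.04), which encodes a phosphatase subunit of the stress response, and Ier5 (-0.04, SE 0.03) were near 0. A fit with Klf2 in place of Fos, chosen after seeing the data, called 16 genes (0.0803% of all rising), of which 12 were members. These included Zfp36 (1.00, SE 0.16, adjusted p = 0.00276), Ier2 (0.86, SE 0.13), Klf4 (0.55, SE 0.09), Dusp6 (0.32, SE 0.06) and Csrnp1 (0.40, SE 0.08), which were called with Klf2 and not with Fos. The difference between the 2 slopes of a gene was not tested.

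Btg2, Nr4a1, Dusp1, Atf3, Egr3, Egr2 and Jun were called with both references. Fosb (0.78, SE 0.20, adjusted p = 0.249), Egr1 (0.74, SE 0.18), Junb (0.53, SE 0.13) and Arc (0.22, SE 0.09) were called with Fos and not with Klf2. The other 4 genes called with Klf2 were Ccn1 (slope 1.55, SE 0.21), Apold1 (1.35, SE 0.17), Depp1 (1.13, SE 0.20) and Arl4d (0.53, SE 0.09). Apold1 is a vascular early response gene and Ccn1 encodes a matrix-associated immediate early protein.

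Outside the members, the 10 genes that most closely followed Fos (by p over 32 mice, with a mean of at least 1 CPM (reads per M reads on genes) and an assigned name) were Ovca2 (0.40, SE 0.04), Gem (0.59, SE 0.07), Spty2d1 (0.19, SE 0.03), Plk2 (0.15, SE 0.02), Pvr (0.25, SE 0.04), Zfp189 (0.21, SE 0.04), Lncppara (-0.42, SE 0.08), mt-Nd6 (-0.09, SE 0.02), Rbm12b1 (0.16, SE 0.03) and Tob1 (0.11, SE 0.02). Lncppara and mt-Nd6 fell as Fos rose. Gem encodes a small GTPase that restrains calcium channels, and Plk2 an activity-induced kinase of synapses. In all 28 genes outside the members rose with Fos and 4 fell.

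The closest of all, 1700016P03Rik (0.88, SE 0.08, adjusted p = 5.02e-10), had no assigned name and is given here after its value was seen. Its annotated span on GRCm38 chromosome 11, 75172560 to 75177633, plus strand, contains the miRNA genes Mir132 and Mir212, whose products are known to be induced by CREB. It overlaps Ovca2 on the opposite strand (75175942 to 75178835, minus strand), so the 2 values cannot be taken as independent. The mature miRNAs were not measured.

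Other genes of the pathway were read from 2 further lists. Of 31 tested genes of the list of other activity-regulated genes (32 listed), 2 rose with Fos, against 0.216% of all genes, namely Plk2 and Midn (0.10, SE 0.02), which carries early-response proteins to the proteasome. Ptgs2, the inducible cyclooxygenase (0.48, SE 0.13, adjusted p = 0.129), and Arl4d (0.33, SE 0.09) were the next by p. On control diet 0 of the 31 were called and 5 were lower in knockouts at an unadjusted p under 0.05, against 2.14% of all genes, with Ccn1 (-1.42, SE 0.48), Midn (-0.11, SE 0.04), Plk2 (-0.15, SE 0.06) and Rasd1 (-0.21, SE 0.09) first by p and a median of -0.04. At 150 days in KO_CD 5 were higher and 1 lower at that threshold, against 2.83% and 2.36% of all genes, led by Plk2 (0.23, SE 0.07), Midn (0.18, SE 0.06), Dusp4 (0.46, SE 0.15) and Errfi1 (0.21, SE 0.09).

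The 25 upstream kinases and factors, such as Creb1, the Elk factors and the MAP kinases, showed none called in any of the 8 comparisons. In the comparison of genotypes on control diet they ran from -0.04 to 0.04, with 0 at an unadjusted p under 0.05. Their slopes on Fos ran from -0.03 to 0.05, again with 0 at that threshold. Protein phosphorylation was not measured.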

How the data were processed

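The authors deposited 1 log2 value per gene and library, as a series table and as 32 single-library tables that differed by at most 0.0005. Each value is the log2 of reads divided by a library size factor, with 0 reads listed as the log2 of 0.1. Whole reads came back for 100.0% of values within a tolerance of 1e-06 reads. Per the submitters' processing notes, the tools included STAR 2.7.6a and DESeq2 1.28.1, with the genome build GRCm38. How reads were assigned to genes, with which annotation and strand setting, is not given in the sources used here.

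Identifiers were paired with symbols through GENCODE annotation of GRCm38 (55141 of 55401 paired, 260 not). Log2(normalized count + 1) was fitted in limma 3.58.1 (R 4.3.3, statmod 1.5.0) with trend and robust moderation, on all 32 libraries and 4 groups without covariates. Genes needed a normalized count of 10 in 7 libraries (19928 genes). Tests were two-sided, with Benjamini-Hochberg adjustment over all genes and a threshold of 0.05. The age comparison used groups split by age, and the covariation with Fos used group and the log2 value of Fos. Fold changes are on the log2(normalized count + 1) scale, which understates changes of low genes. Each library was labelled a separate biological replicate. Reads on genes numbered 25.33 to 34.19 M per library. The standard errors and tests rest on the spread between mice, with 7 to 9 mice per group. The limma code was run on simulated counts with 1 fixed setting of spread for every gene. The members differ in spread and many rise and fall together, so that run does not measure error or power for them. Exact permutation tests ran in scipy 1.17.1.

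Members and lists were chosen with earlier results of these data known. Named genes were all 38 members, the 10 non-members of smallest p with Fos, up to 4 of the other activity-regulated list per comparison, markers needed to describe a list, and Gpr101. Alternatives covered pseudocount, filter, scaling, limma-voom on recovered reads, covariates, blocks and omitted libraries. Diet averaged over genotypes was not analysed here.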

Additional observations from a re-analysis of the deposited data

Results flagged for a closer look

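In 152 groups (38 members in 4 groups of mice), 5 held a mouse whose gap to the nearest of the others was large for the range of its group. Chance alone gives about 1 in 20 such groups (5.0%), so the number found was below that. In WT_CD, replicate 2 had 187.6 normalized counts of Atf3 where the next mouse had 62.6, and 229.4 of Csrnp1 where the next had 152.3. In KO_CD, replicate 8 had 159.9 of Gadd45b, above the next at 130.9, and replicate 4 had 338.5 of Dusp6, below the next at 409.4. In KO_HFD, replicate 8 had 317.6 of Npas4, below the next at 501.2, although its Fos (1141) lay inside the range of its group.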

How the results depend on the processing

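Genes called over the whole table were 1 for genotype on each diet and averaged (Gpr101), 0 for the interaction, 5 and 7 for diet in wild type and knockouts, 0 for age within KO_CD and 47 with Fos. Without the filter on low values genotype on control diet gave 2 and age 2. Age as a covariate gave 1 for diet in wild type, 23 with Fos, and 4 members higher for diet in knockouts (from 11). It also gave 25 members lower for genotype on control diet (from 19) and 5 higher for the interaction (from 2). Scaling to total reads gave 4 for diet in knockouts. With Fos, leaving out KO_CD gave 20 and Klf2 as reference 16, both chosen after seeing the data. Members lower on control diet numbered 7 without KO_CD replicates 3 and 4 and 6 without WT_CD replicates 1 and 2. The 1 member higher for genotype on high-fat diet became 0 in mice of 150 days only and in high-fat diet libraries only.

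Leaving out 1 library at a time gave 1 to 1 gene for each genotype comparison, 0 to 0 for the interaction, 1 to 7 and 3 to 10 for diet in wild type and knockouts, 0 to 1 for age (1 without KO_CD replicate 6) and 26 to 64 with Fos (26 without KO_CD replicate 7, 29 without replicate 8). Members numbered 15 to 24 for genotype on control diet, 0 to 2 on high-fat diet, 6 to 17 for diet in knockouts, 13 to 20 for age and 14 to 16 called with Fos. For diet in knockouts 6 remained without KO_CD replicate 3, 4 or 5 or KO_HFD replicate 7, 7 without KO_HFD replicate 4 or 6, and 17 without KO_CD replicate 7.

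Replicate numbers paired the mice weakly if at all. The median correlation was 0.005 over 45 same-numbered pairs from different groups (8 over 0.1) and -0.001 over 338 other pairs (40 over 0.1). For blocks of label numbers it was 0.006 over 95 pairs within a block (17 over 0.1) and -0.002 over 288 others (31 over 0.1). A replicate block gave 3 genes for diet in wild type, 23 genes and 11 members with Fos, 9 members for age, 20 for genotype on control diet and 5 for the interaction. A block of 8 consecutive label numbers gave 28 genes with Fos, 11 members for age, 21 for genotype on control diet and 6 for the interaction. Under the replicate block Egr3, Jun, Dusp1 and Atf3 were not called with Fos (adjusted p = 0.0623, 0.0775, 0.118 and 0.376). No member called with Fos changed sign. Uncalled member differences did change sign in 261 of 13100 values over all alternatives, most often for diet in wild type (94 values) and genotype on high-fat diet (49), and for 21 with age as a covariate and 13 with the replicate block. Egr3 and Fosl2 were thus 0.0041 and 0.02 on high-fat diet in mice of 150 days only. Members below 0 went from 2 to 7 for age with the replicate block. The causes were not tested. Age and diet overlap in few mice, 3 mice of 150 days carry the age comparison, and low genes such as Egr2 (7 reads in the lowest library) limit precision.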
